A study of Mus musculus with 2 samples.

Results

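The genes of the mitochondrial respiratory chain and of the ATP synthase were followed across every annotated cell type of a control and an injured mouse kidney. Members were all genes of the deposited expression table whose symbols begin with Nduf, Sdha, Sdhb, Sdhc, Sdhd, Uqcr, Cox4, Cox5, Cox6, Cox7, Cox8, Atp5 or mt-, which gave 106 of 15169 genes. Of these, 93 are encoded in the nucleus and 13 in the mitochondrial genome (mt-). The chain passes electrons from NADH (complex I) and succinate (complex II) through complexes III and IV to oxygen, and the proton gradient so built drives ATP synthesis by complex V. All complexes but II are mosaics of subunits from both genomes, so nuclear and mitochondrial transcription both feed the same assemblies. In the kidney, proximal tubule, thick ascending limb and distal tubule are rich in mitochondria because sodium reabsorption consumes much ATP.

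The study profiled single cells from 1 control and 1 injured kidney, both from wild-type C57BL/6 mice aged 9 weeks. The control was a normal kidney. The injured kidney had undergone unilateral ischaemia and reperfusion (IRI), a stop of renal blood flow followed by its return, with removal of the opposite kidney, and the labels state no time after injury. No nephrectomy is named for the control, so the effects of ischaemia and of losing the other kidney cannot be told apart. Cells were released enzymatically with Liberase and DNase I and passed through a strainer. Nothing in the labels says that more than 1 animal gave cells to a library. With 1 library per group no test between animals was possible, so no p-value is given and every difference below describes these libraries only.

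The control library held 6589 cells (median 2344 raw UMIs, counted transcript molecules, per cell) and the IRI library 5170 cells (median 1888.5). The values are depth-corrected counts, whose total per cell ran from 1468 to 3212, and levels below are means of these per cell. The 55 cell barcodes found in both libraries were kept, and doublets were not called. The deposited annotation has 18 types, of which 13 had at least 20 cells in each library. Proximal tubule (PT) means the types PT-S1, PT-S2 and PT-S3, named for successive segments. The summed level of 6 proximal tubule markers was 90.1 to 116.7 in these 3 types of the control and 66.3 to 98.7 in IRI. The segment names were less well borne out. In the control, 4 PT-S2 markers summed to 0.391 in cells named PT-S2, against 1.17 in PT-S1 and 2.82 in PT-S3. The 5 PT-S3 markers summed to 4.73 in control PT-S3 but to 0.738 in IRI PT-S3, where 6 injured-tubule markers stood at 14.3 against 0.0895 in the control. The segment names are therefore used only as labels of the annotation.

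Nuclear members took their largest shares of the corrected counts in the distal nephron, in both libraries. In the control they made up 11.4% in thick ascending limb (TAL), 9.98% in collecting duct intercalated cells (CD-IC) and 9.82% in distal convoluted and connecting tubule (DCT/CNT). PT-S2 followed with 8.85%, the thin descending limb (tDL) with 7.94%, PT-S1 with 6.96% and PT-S3 with 6.17%. Vasculature (4.40%) and myofibroblasts (4.17%) were lower, and T cells (2.49%), B cells (2.31%) and Ccr2+ macrophages (1.80%) lower still. The same 3 distal types led in IRI, with 12.9% in TAL, 12.2% in CD-IC and 10.8% in DCT/CNT. Neighbours in this order often lay within the interquartile range of cells of each other, as the plot of shares by type shows. Red cells, which lose their mitochondria as they mature, held 0.428% nuclear and 3.87% mt- members in the control, the lowest shares of any type with at least 20 cells in that library.

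The mt- members did not follow the same order. Their share in the control was highest in resident macrophages (27.8%), CD-IC (26.7%) and PT-S3 (25.8%), and was 16.5% in both PT-S2 and DCT/CNT. Resident macrophages had the fewest raw UMIs per cell of these types (median 599.5). The summed proximal tubule markers in macrophages of the resident and Ccr2+ types, T cells and B cells were at most 34.9 in the control and 16.2 in IRI, both in resident macrophages, and at least 5.65. Tubule RNA was thus measured in immune cells in both libraries, and its part in their respiratory chain levels was not tested.

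**Figure D1:**
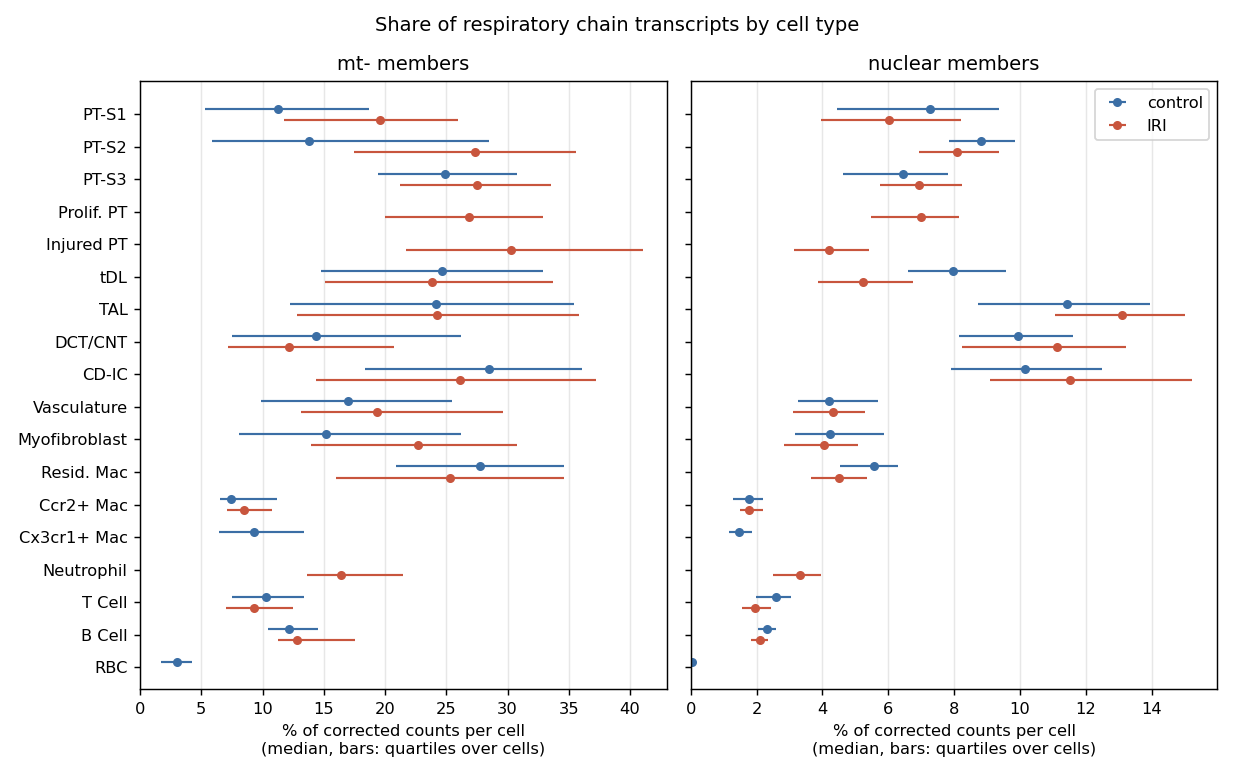
Share of mt- members (left) and nuclear members (right) in the corrected counts of each cell, in percent, for types with at least 20 cells in a library, as medians (points) and quartiles (bars) over cells of control (blue) and IRI (red). The red mt- points of PT-S1 and PT-S2 lie to the right of the blue ones, while the nuclear points of TAL, DCT/CNT and CD-IC are the farthest right of all types.

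In proximal tubule, on the deposited scale and over all cells, the mt- and nuclear members stood on opposite sides of the control. The mt- share was 19.0% in 4827 control cells and 24.2% in 3261 IRI cells, while the nuclear share was 7.76% and 7.20%. Both are parts of the same total, so a higher mt- share by itself lowers the share of all other genes. The ratio of mt- to nuclear counts was 2.44 in the control and 3.36 in IRI. For each gene the IRI mean was divided by the control mean, after adding 0.05 to both, and expressed as a log2 ratio. The median was 0.26 for the 13 mt- members and -0.18 for the 92 nuclear members with at least 10 summed counts, a difference of 0.44. Of the mt- members 11 of 13 were above 0, and of the nuclear members 75 of 92 were below 0, against 53.9% of all 11944 genes measured. That background spans genes of every level, and the share below 0 among genes of like level is not given here. In the same cells injured-tubule markers summed to 0.201 in control and 5.80 in IRI, and macrophage markers to 0.0762 and 0.272. The part of either in the ratios was not tested.

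The nuclear median lay between those of other sets of genes. All genes had a median log2 ratio of -0.01, but the 2123 genes with a mean of at least 0.1 had one of -0.21 and the 303 genes with a mean of at least 1 had one of -0.08. Rescaling by 3 other methods took the proximal tubule nuclear median to between -0.07 and -0.04 and the mt- median to between 0.40 and 0.43. It left 51 to 57 of 92 nuclear members below 0. A common rescaling moves both classes alike, and their difference was 0.47 under each of these scalings.

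Of the 13 compared types, 9 had a higher median ratio for mt- than for nuclear members and 4 a lower one. The difference was 0.77 in PT-S1, 0.73 in PT-S2 and -0.03 in PT-S3. It was 0.51 in myofibroblasts, 0.44 in tDL, 0.36 in B cells, 0.31 in vasculature, 0.26 in Ccr2+ macrophages, 0.21 in T cells and 0.19 in resident macrophages. TAL (-0.18), DCT/CNT (-0.25) and CD-IC (-0.40) had the opposite sign to proximal tubule as a whole. The sign held in DCT/CNT under all alternatives run, and in CD-IC likewise, but TAL gave 0.08 in cells with an mt- share under 20% and 0.01 with raw UMI bins at equal weight, and PT-S3 gave 0.11 with clusters at equal weight.

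**Figure D2:**
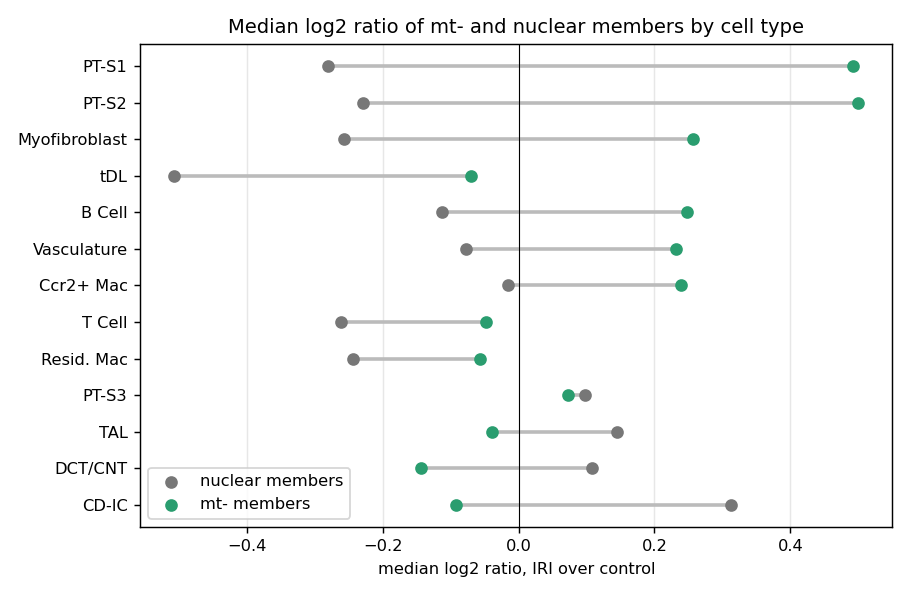
Median log2 ratio of IRI over control for nuclear members (grey) and mt- members (green) in each type with at least 20 cells in both libraries, joined by a line and ordered by their difference. The longest lines belong to PT-S1 (0.77) and PT-S2 (0.73), and in the lower 4 types the grey point lies to the right of the green one.

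The mt- genes encode core subunits of complexes I, III, IV and V and are transcribed together from long precursors. In proximal tubule, mt-Nd3 of complex I had a level of 4.48 in control and 6.66 in IRI (log2 ratio 0.57), the highest ratio of the class. The 3 mt- core subunits of complex IV stood at 41.2 and 49.5 for mt-Co1 (0.26), at 34.6 and 44.3 for mt-Co2 (0.36), and at 67.7 and 88.7 for mt-Co3 (0.39). For mt-Cytb, the one mt- member of complex III, the levels were 44.7 and 58.1 (0.38). The ATP synthase members mt-Atp6 and mt-Atp8 had log2 ratios of 0.32 (87.5 and 109.0) and 0.18 (0.582 and 0.663). With clusters at equal weight the ratio of mt-Atp8 was -0.06.

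Complex I was the least uniform. For mt-Nd1 the levels were 59.5 and 76.3 (0.36), and mt-Nd4 (30.3 and 35.9) and mt-Nd2 (18.8 and 21.5) had ratios of 0.24 and 0.19. The ratio was 0.12 for mt-Nd5 (3.23 and 3.51), but -0.09 with clusters at equal weight. The 2 members below 0 were mt-Nd4l (1.74 and 1.67, -0.06) and mt-Nd6 (0.0698 and 0.0690, -0.01), the latter transcribed from the other strand of the mitochondrial genome, and both were above 0 under the 3 other scalings (0.07 to 0.10). All 13 were above 0 in PT-S1 (median 0.49) and in PT-S2 (0.50), and mt-Nd3 was the highest in each (0.68 and 0.78). In PT-S3 the median was 0.07, with 8 of 13 above 0, from -0.57 for mt-Nd4l to 0.41 for mt-Nd3. The genes of 1 polycistronic unit are not independent observations.

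Among the nuclear members of proximal tubule, complex I, complex II and the assembly factors stood lowest. Of 36 nuclear structural subunits of complex I, the entry point for NADH electrons, 32 were below 0, with a median of -0.26. The lowest were Ndufb4, an accessory subunit (2.04 in control, 1.38 in IRI, log2 ratio -0.55), and Ndufs8, a core subunit that carries iron-sulphur clusters (0.651 and 0.435, -0.53). Among the highest were Ndufc2 (0.872 and 0.995, 0.18) and Ndufa3 (2.24 in both, 0.00), both accessory subunits. The 7 nuclear core subunits had a median of -0.38 and the 29 accessory subunits one of -0.25. Under the 3 other scalings the complex I median stayed between -0.13 and -0.10, with 26 to 29 of 36 below 0.

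Complex II, which is also the succinate dehydrogenase of the tricarboxylic acid cycle, is wholly nuclear. Its iron-sulphur subunit Sdhb stood at 1.14 in control and 0.727 in IRI (-0.62), the lowest ratio of any structural subunit. The membrane anchors Sdhc (0.721 and 0.569) and Sdhd (0.541 and 0.421) had ratios of -0.32 and -0.33, and the flavoprotein Sdha (0.354 and 0.330) one of -0.09. All 4 were thus below 0, with a median of -0.32, and 3 of 4 under the other scalings (-0.20 to -0.17). Sdhb depended on the cell mix: it was lower in IRI in 5 and higher in 3 of the 8 proximal tubule clusters with at least 20 cells in both libraries. With these clusters at equal weight its ratio was -0.21, those of Sdhc and Sdhd were 0.13 and 0.08, the complex II median was -0.01 and that of complex I -0.11. The ratio of Sdha was 0.03 to 0.05 under the other scalings.

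Complexes III, IV and V lay nearer to 0, and their direction turned with the scaling. The median was -0.04 for 8 nuclear subunits of complex III, -0.08 for 11 of complex IV and -0.13 for 15 of complex V. Under the other scalings these became 0.08 to 0.11, 0.05 to 0.08 and 0.00 to 0.03. Within complex III the Rieske iron-sulphur protein Uqcrfs1 (1.5 and 1.12, -0.41), Uqcrc1 (0.405 and 0.317, -0.31) and Uqcrb (2.93 and 2.54, -0.20) were lowest. Uqcrh (2.80 and 2.97, 0.08), Uqcr11 (3.38 and 3.43, 0.02) and Uqcr10 (5.67 and 5.74, 0.02) were highest.

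In complex IV the lowest were Cox7b (2.75 and 2.47, -0.15), Ndufa4 (5.71 and 5.14, -0.15), a complex IV subunit despite its name, and Cox7a2l, which takes part in supercomplexes (0.923 and 0.841, -0.13). Cox4i1, the common form of subunit 4, was at 4.18 and 4.74 (0.18). In complex V, ATP synthase, the lowest were Atp5d (2.79 and 2.23, -0.32) and Atp5e (6.23 and 5.23, -0.25) of the F1 head and Atp5j of the stalk (3.62 and 2.94, -0.29). Atp5g3, a gene for the c-ring subunit, was at 1.47 and 1.59 (0.10), its paralog Atp5g1 at 3.29 and 3.17 (-0.05), and the catalytic-head subunit Atp5a1 at 1.19 and 1.2 (0.01).

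Assembly factors are not part of the finished complexes but are needed to build them. Of 12 measured, 11 were below 0 in proximal tubule, with a median of -0.36, and 10 were below 0 under the other scalings (-0.30 to -0.28). Ndufaf4, for complex I, had levels of 0.248 in control and 0.112 in IRI (-0.88), and Sdhaf1, which helps insert iron-sulphur clusters into Sdhb, 0.317 and 0.153 (-0.85). Sdhaf1 was lower in IRI in 8 of 8 clusters and Ndufaf4 in 7 of 8. Over these clusters the median of all genes ran from -0.34 in cluster 4 to 0.06 in cluster 12. The share of all genes lower in as many clusters is not given here. Clusters 1 and 4 had 25 and 58 IRI cells, so few counts stand behind their values. The other assembly factors of complex II were Sdhaf4 (0.283 and 0.183, -0.52), Sdhaf3 (0.0644 and 0.0405, -0.34) and Sdhaf2 (0.0599 and 0.0439, -0.23). No nuclear member was at least 2-fold lower (background 0.762% of genes) and 1 was at least 2-fold higher (background 0.41%), the complex IV isoform Cox6b2, described below. With 0.01 added to each mean in place of 0.05, Ndufaf4 (-1.08) and Sdhaf1 (-1.002) passed the 2-fold limit.

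**Figure D3:**
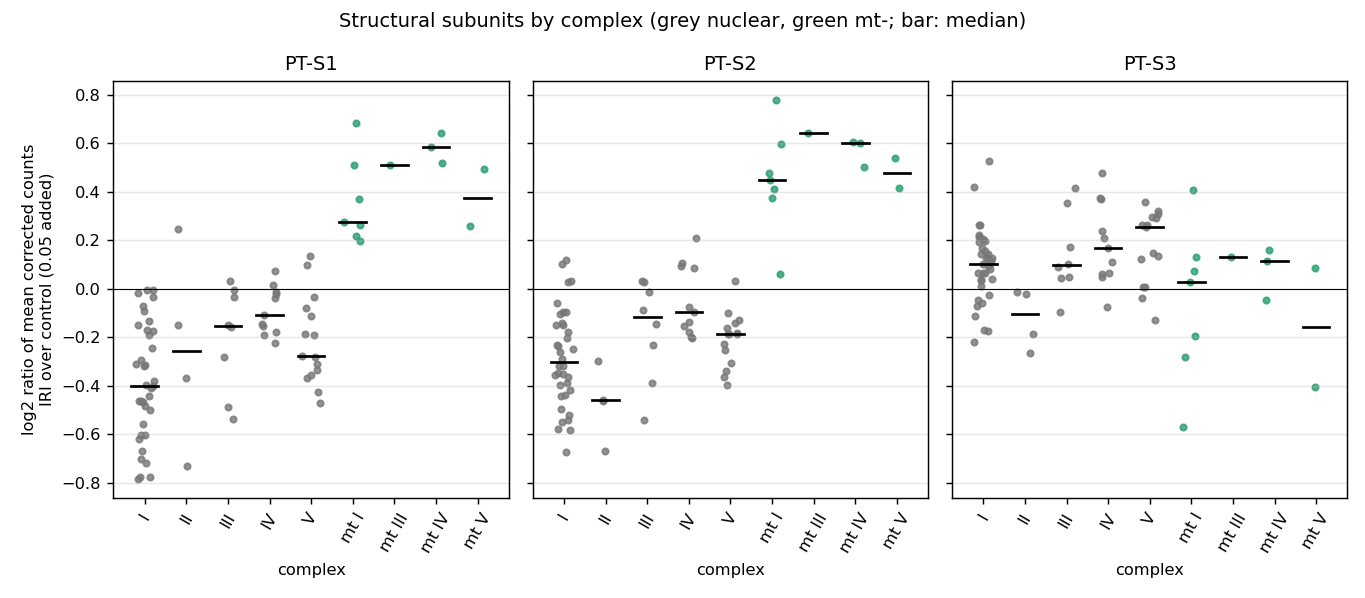
Log2 ratio of IRI over control of each structural subunit by complex in PT-S1, PT-S2 and PT-S3, with nuclear subunits in grey, mt- subunits in green and black bars at the median. In PT-S1 all 36 nuclear subunits of complex I lie below 0 and all 13 mt- subunits above it, while in PT-S3 both classes scatter around 0.

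The 3 proximal tubule types differed in this pattern. In PT-S1 the nuclear median was -0.28, with 82 of 91 members below 0, and all 36 structural subunits of complex I were below 0 (median -0.40, and 28 or 29 of 36 under the other scalings). The background of genes below 0 in PT-S1 was 63.3%. In PT-S2 the nuclear median was -0.23 with 76 of 91 below 0 (background 62.4%), but it was 0.05 to 0.09 under the other scalings, so the nuclear direction there rests on the scale. In PT-S3 the nuclear median was 0.10 with 26 of 90 below 0 (background 60.5%). Its 1 member at least 2-fold higher was Cox6b2 (background 1.09%) and its 1 at least 2-fold lower was Ndufaf4 (-1.15, background 2.34%). Of its 36 complex I subunits, 28 were above 0. Complex II had all 4 subunits below 0 in PT-S3 (median -0.10), but its median was 0.02 to 0.04 under the other scalings and -0.18 with clusters at equal weight.

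The clusters behind each type differed between the libraries, and the segment values moved with them. Control PT-S2 was mostly cluster 1 (1283 control and 25 IRI cells) with an mt- share of 7.87% in the control, and cluster 2 (898 and 72 cells) with 30.03%. IRI PT-S2 was mostly cluster 0 (391 and 1092 cells) with 30.8% in IRI, where its control cells had 27.8%. Within clusters the difference between mt- and nuclear medians was smaller for PT-S2, at 0.24 in cluster 0, 0.11 in cluster 1, 0.22 in cluster 2 and 0.08 in cluster 12. With clusters at equal weight it was 0.09 in PT-S2 in place of 0.73, and 0.25 in proximal tubule in place of 0.44. PT-S1 kept it, with 0.50 in cluster 5, 1.08 in cluster 6 and 0.72 at equal weight. In cluster 6 the mt- share was 8.22% in 276 control cells and 14.9% in 479 IRI cells. PT-S3 gave 0.36 in cluster 3, -0.09 in cluster 4 and 0.11 at equal weight, with a nuclear median of -0.12. Of the 8 clusters, 7 had a higher median ratio for mt- than for nuclear members. The nuclear median was below 0 in 5 of the 8 and the mt- median above 0 in 7.

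Depth and nuclear RNA also differed with these cells. In PT-S2 the control mt- share was 28.0% in cells under 1000 raw UMIs and 5.19% in cells of at least 8000, and the IRI share 29.8% and 5.57%. In between, at 2000 to 4000 UMIs, the shares were 10.7% and 18.6%. Nuclear members of PT-S2 were at least 8.02% in all these bins. In PT-S1 the libraries were near each other at 1000 to 2000 UMIs (16.6% and 17.6%) and apart at 8000 or more (13.9% and 24.6%). With depth bins at equal weight the mt- minus nuclear difference was 0.57 in proximal tubule, 0.73 in PT-S1, 0.45 in PT-S2 and 0.15 in PT-S3. The nuclear long RNA Malat1 stood at 102.7 and 84.7 in PT-S1, at 1.80 and 2.67 in PT-S2 and at 46.9 and 4.03 in PT-S3, for control and IRI. In TAL the mt- share was higher in IRI in each of the 3 bins that both libraries filled, at 28.3% and 31.9%, 22.6% and 27.9%, and 19.9% and 22.3%, while over all its cells it was 23.9% and 23.5%. The part of depth and of Malat1-rich cells in the segment differences was not tested beyond these values.

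**Figure D4:**
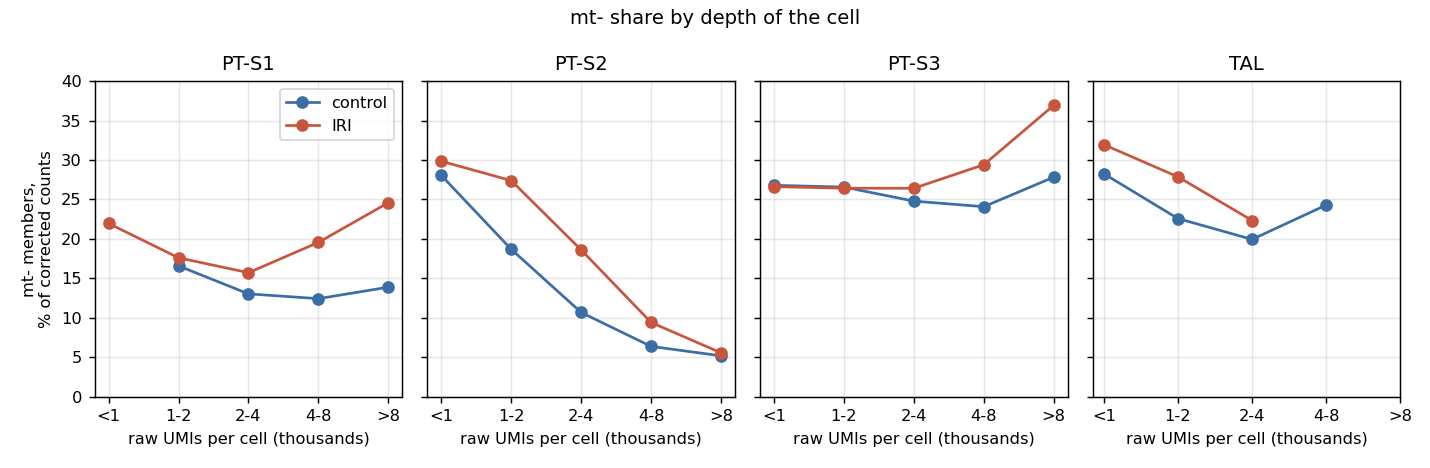
Share of mt- members in the summed corrected counts of cells binned by raw UMIs, in percent, for PT-S1, PT-S2, PT-S3 and TAL, with control in blue and IRI in red and only bins of at least 20 cells. The curves of PT-S2 descend from over 28% to near 5% in both libraries, those of PT-S1 separate at high depth, and those of PT-S3 run close together below 2000 UMIs.

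Along the proximal tubule of the control, PT-S3 had higher levels than PT-S1 for 13 of 13 mt- members (median log2 ratio of PT-S3 over PT-S1 0.84, background 31.1% of genes higher). Levels were lower for 71 of 91 nuclear members (-0.31), near the background of 68.9% of genes (median of all genes -0.14). In IRI the corresponding medians were 0.47 and 0.09, with 64 of 91 nuclear members higher in PT-S3 (background 31.4%). Against PT-S2, TAL had higher levels for 70 of 91 nuclear members in the control (median 0.38, background 64.8% of genes higher) and for 82 of 90 in IRI (0.77, background 62.4%). For mt- members the TAL over PT-S2 median was 0.51 in the control and -0.06 in IRI. These contrasts share the cell mix described above.

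In TAL, DCT/CNT and CD-IC the nuclear medians were above 0. CD-IC had the largest nuclear median, 0.31, with 75 of 83 measured members above 0 and 8 below it (background 49.4% of genes below 0) in 57 control and 55 IRI cells, and the other scalings gave 0.22 to 0.34. All 15 structural subunits of complex V and all 11 of complex IV were above 0 there on the deposited scale. Among CD-IC members 5 were at least 2-fold higher (background 5.88%) and 0 at least 2-fold lower (background 7.07%), so the count of higher members was near that of all genes. Cox7a1 (1.19 and 2.55, log2 ratio 1.06) and Ndufs3, a core subunit of complex I (0.491 and 0.927, 0.85), were the highest by the naming rule, and mt-Nd4l (2.33 and 1.56, -0.56) and mt-Nd5 (4.02 and 3.05, -0.39) the lowest. Mt- members of CD-IC had a median of -0.09.

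TAL had a nuclear median of 0.14 (0.13 to 0.17 under the other scalings), with 75 of 90 above 0 and all 11 complex IV and all 8 complex III subunits above 0, against 58.6% of all genes below 0. The highest by the naming rule were the complex I subunits Ndufb6 (1.02 and 1.59, 0.62) and Ndufs8 (0.877 and 1.32, 0.57), and the lowest Cox7a1 (0.343 and 0.161, -0.90) and Ndufv1 (0.5 and 0.330, -0.53). Ndufs8 thus had a ratio of -0.53 in proximal tubule and 0.57 in TAL, a difference that was not tested. No member of TAL was past 2-fold in either direction (background 1.05% higher and 2.29% lower). In DCT/CNT the nuclear median was 0.11 (58 of 88 above 0 and 30 below, against 54% of genes below), and 0.01 to 0.07 under the other scalings. Of its clusters, cluster 15 (172 control and 31 IRI cells) had a nuclear median of 0.24 and cluster 24 (64 and 32 cells) one of 0.00, with 39 of 84 members below 0. No member was past 2-fold (background 2.22% higher and 4.78% lower). Its mt- median was -0.14, and all 7 mt- members of complex I were below 0, led by mt-Nd5 (2.70 and 1.67, -0.68) and mt-Nd2 (17.4 and 11.9, -0.54). Malat1 in DCT/CNT was 61.7 in control and 141.7 in IRI, and the median raw UMIs were 2426.5 and 4472. The part of both in these ratios was not tested.

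The thin descending limb had the lowest nuclear ratios, with a median of -0.51 and 81 of 90 members below 0, against 43.8% of all genes. Here 6 nuclear members were at least 2-fold lower (background 6.39%) and 1 at least 2-fold higher (background 4.96%). Complex II was lowest, with a median of -1.21, through Sdhc (0.595 and 0.218, -1.27), Sdhb (0.970 and 0.380, -1.25) and Sdhd (-1.16). The tDL of each library was nearly a cluster of its own: cluster 11 held 391 of 427 control cells and cluster 9 held 420 of 440 IRI cells. Within them the nuclear medians were -0.20 and -0.08, and at equal weight the nuclear median was -0.18. The label itself was mixed. In tDL cells the 5 thin limb markers summed to 2.45 in control and 2.85 in IRI. The 6 injured-tubule markers summed to 0.614 and 39.1, and Malat1 was at 4.35 and 35.5. The 6 proximal tubule markers summed to 97.7 and 31.3, against 98.6 in proximal tubule of the control. Much of that sum was 1 gene, Kap, at 70.2 in control tDL and 36.8 in control proximal tubule. Of the same list, Slc34a1 (0.578 against 2.24) and Lrp2 (0.574 against 1.07) were lower in control tDL, and the rest are not given here. The tDL ratio thus compares different clusters, and library and cluster cannot be told apart for most of its cells.

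Injured PT, a type with 135 cells all from IRI, had an mt- share of 31.9% and a nuclear share of 4.39%, a ratio of 7.26 against 3.36 in IRI proximal tubule. Its Sdhb level was 0.200 against 0.727. Its cells were deeper, with a median of 8267 raw UMIs against 1819. In IRI cells of at least 8000 UMIs the mt- to nuclear ratio was 4.85 in PT-S1, 0.533 in PT-S2 and 6.20 in PT-S3. IRI cells of PT-S1 cluster 5 had a ratio of 5.44 and an Sdhb level of 0.331, and IRI B cells a ratio of 7.17. The part of depth in the Injured PT values was not tested. Proliferating PT cells of IRI (155 cells) had 26.0% and 6.80%, and their 16 control cells were too few to compare.

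Among immune and stromal types, ratios of nuclear members were mostly below 0 with smaller levels behind them. Resident macrophages had a nuclear median of -0.24 (67 of 83 below 0, against 38.4% of all genes) and T cells -0.26 (66 of 80, against 54.5%). In resident macrophages the tubule gene Kap was at 16.5 in control and 4.01 in IRI, and in T cells at 5.31 and 1.21. Kap is not particular to proximal tubule here, as its highest level was in control tDL (70.2). Kap was also lower in IRI in proximal tubule itself (36.8 and 13.5), so these values do not measure the amount of tubule RNA. The tubule gene Slc34a1 was at 2.24 and 2.10 in proximal tubule, at 0.931 and 0.605 in resident macrophages and at 0.593 and 0.144 in T cells. The part of tubule RNA in their nuclear ratios was not tested. For B cells (-0.11), Ccr2+ macrophages (-0.02), vasculature (-0.08) and myofibroblasts (-0.26) the sign of the nuclear median turned under at least 1 other scaling. The mt- medians of these 4 types were 0.25, 0.24, 0.23 and 0.26, with 12 of the 12 or 13 measured members above 0 in each. Below 0 were 41 of 72 nuclear members in B cells (background 47.5%), 41 of 81 in Ccr2+ macrophages (background 46.1%), 52 of 84 in vasculature (background 57.5%) and 53 of 77 in myofibroblasts (background 62.8%), each near its background.

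In resident macrophages Ndufv1 (0.154 and 0.0458, -1.09), the flavin-carrying core subunit of complex I, was the only member past 2-fold lower (background 3.27%), and none was past 2-fold higher (background 6.61%). Ndufv1 also led the lower members of vasculature (0.212 and 0.0625, -1.22), the 1 member past 2-fold lower there (background 4.37%), with none higher (background 1.56%). Myofibroblasts had 15 nuclear members at least 2-fold lower (background 19.9%), from 31 control and 35 IRI cells, among them Atp5b, the catalytic subunit of ATP synthase (2.29 and 0.657, -1.73), and 0 at least 2-fold higher (background 6.22%). The myofibroblast count, 15 of 77 members, is near the background, and few cells stand behind each value. In T cells the 1 member past 2-fold lower was Sdhd (-1.03, background 3.37%), with none higher (background 2.88%). B cells had 2 at least 2-fold higher (background 9.1%) and 5 lower (background 4.79%), among them Atp5a1 (0.852 and 0.304, -1.35), and Ccr2+ macrophages 3 higher (background 12.5%) and 3 lower (background 6.51%), among them Cox7a2l (2.13 and 1.0, -1.05).

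Several complex IV subunits have a second gene with restricted expression, and 1 of these isoforms had the highest ratio of any member in proximal tubule. Cox6b2 is best known as a testis form of subunit 6b. In proximal tubule its level was 0.0257 in control and 0.263 in IRI (log2 ratio 2.05), while its common partner Cox6b1 was at 4.74 and 4.55 (-0.06). Cox6b2 was above 0 in 102 of 4827 control cells (2.11%, exact 95% interval 1.73 to 2.56%) and in 587 of 3261 IRI cells (18.0%, 16.7 to 19.4%). Such intervals cover counting error within a library only. The higher share was in the library with fewer raw UMIs per proximal tubule cell (median 2738 in control, 1819 in IRI).

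The higher level of Cox6b2 in IRI was found in each segment, and it was the only nuclear member at least 2-fold higher in PT-S1 (background 0.675%) and in PT-S2 (background 0.234%). PT-S2 had no member at least 2-fold lower (background 0.996%). Its share of cells was 5.83% and 21.6% in PT-S1, 1.72% and 15.4% in PT-S2, and 1.32% and 18.4% in PT-S3. Its level was higher in IRI in 8 of 8 clusters, for example 0.0318 and 0.236 in cluster 5 and 0.0303 and 0.596 in cluster 12. The ratio ranged from 1.89 to 2.94 over all alternatives but the addition of 0.5 to each mean, which is far above the level of Cox6b2 and gave 0.54. Proliferating PT of IRI had it in 23.9% of cells and Injured PT in 9.63%. T cells, which are not known for it, had it in 1 of 59 control cells (1.69%) and 5 of 97 IRI cells (5.15%), at median raw UMIs of 2606 and 3345, which is taken here as the background share. Outside proximal tubule Cox6b2 was also at least 2-fold higher in tDL (4.96% of all genes), in 2 of 427 and 25 of 440 cells (log2 ratio 1.26). The tDL share in IRI was near that of IRI T cells. In CD-IC it was likewise at least 2-fold higher (5.88% of all genes), in 2 of 57 and 7 of 55 cells (0.0351 and 0.145). Few cells stand behind the CD-IC value. The tDL ratio compares different clusters. Within them Cox6b2 was at 0.0556 and 0.0905 in cluster 9 and at 0.00256 and 0 in cluster 11. Of the 10 types in which it was measured, segments included, 8 had a higher level in IRI. In TAL the shares were 5.25% and 6.25%, and in myofibroblasts 22.6% and 20%, with overlapping intervals in both types.

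Cox7a1, the heart and muscle form of subunit 7a, had its largest share of cells in CD-IC. There it was above 0 in 56.1% of control cells (42.4 to 69.3%) and 76.4% of IRI cells (63.0 to 86.8%). The intervals overlap. It was also found in the other distal types, in 71 of 324 control and 17 of 112 IRI cells of TAL (log2 ratio -0.90). In DCT/CNT it was above 0 in 53 of 236 and 17 of 63 cells (0.12). In proximal tubule the shares were 8.08% and 14.6% (0.0963 and 0.182, log2 ratio 0.67), and it was higher in 6 and lower in 2 of 8 clusters. T cells had Cox7a1 in 1.69% and 0% of cells. Its common partner Cox7a2 was at 4.22 and 3.90 in proximal tubule.

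Cox6a2, the muscle form of subunit 6a, was above 0 in 64 of 600 control PT-S1 cells (10.7%, 8.31 to 13.4%) and 17 of 989 IRI cells (1.72%, 1.00 to 2.74%), a log2 ratio of -1.34. It was the 1 nuclear member at least 2-fold lower in PT-S1 (background 0.424%), and its level was lower in IRI in 7 of 8 proximal tubule clusters and at 0 in both libraries in the other. Clusters 1 and 4 cannot show a direction: their control levels were 0.00701 and 0.00135, and only 25 and 58 IRI cells stand behind their IRI level of 0. In PT-S2 and PT-S3 the shares were at or under 0.682%. T cells had it in 1 of 59 control cells (1.69%) and 0 of 97 IRI cells (upper limit 3.09%). Ccr2+ macrophages had a larger level in control (0.688, from 5 of 32 cells) and 0.0783 in IRI (2 of 217 cells). That log2 ratio, -2.52, was further below 0 than the one of PT-S1, with few positive cells behind it.

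Cox4i2, a form of subunit 4 linked to low oxygen, was above 0 in 1 of 4827 control and 0 of 3261 IRI proximal tubule cells. The latter allows a share of up to 0.0920% of cells with a count, at this depth (median 1819 raw UMIs), and sets no limit on cells that express the gene. It was seen in 29.0% of control and 5.71% of IRI myofibroblasts, 9 of 31 and 2 of 35 cells, with overlapping intervals (14.2 to 48.0% and 0.700 to 19.2%). Ndufa4l2, a hypoxia-induced paralog of Ndufa4, was in 9 of 31 and 7 of 35 myofibroblasts (29.0% and 20%), but in 0.166% and 0.153% of proximal tubule cells.

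**Figure D5:**
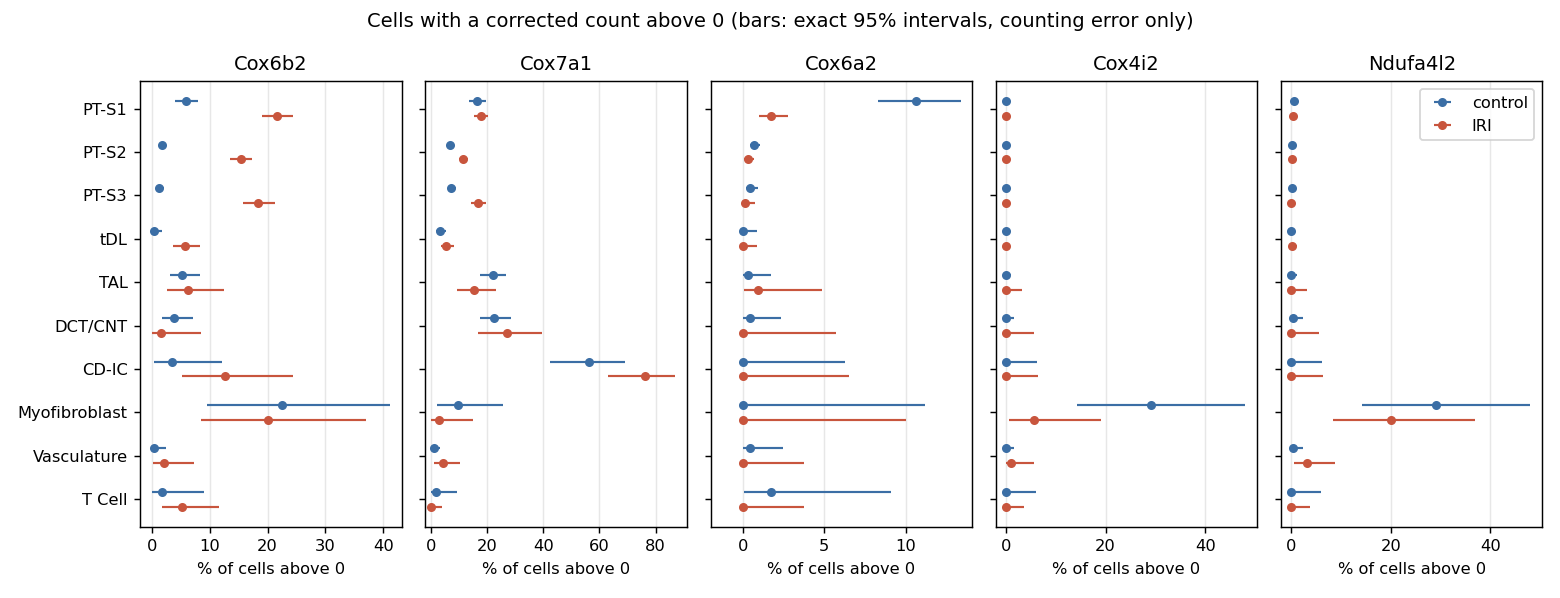
Percentage of cells with a corrected count above 0 for 5 isoform genes in 10 types, control in blue and IRI in red, with exact 95% intervals that cover counting error only. For Cox6b2 the 3 proximal tubule types are separated between the libraries, and Cox7a1 stands highest in CD-IC. Among the types shown, which leave out Ccr2+ macrophages, Cox6a2 separates in PT-S1 alone. Cox4i2 and Ndufa4l2 are found mainly in myofibroblasts.

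Nuclear members are reached by shared transcription factors, so their promoters were searched for the letters of known motifs on both strands. RefSeq promoters of GRCm38.p6, from 250 bases before to 50 after the gene start, were matched for 78 of 93 nuclear members, 3 of them by an older symbol. The motif of NRF1 (GCGCA, any base, GCGC), a factor known for driving nuclear respiratory genes, occurred in 21 of 78 members (26.9%) and in 5.19% of 27025 genes. Its strict form, with T as that base, which the former includes, was in 7 members (8.97%) and 1.07% of genes. AAGATGGC of YY1 was in 11 members (14.1%, all genes 3.19%), AAGGTCA of the oestrogen-related receptors in 8 (10.3%, all genes 5.38%), CCGGAAGT of ETS factors in 5 (6.41%, all genes 4.31%) and ACGTGC of hypoxia response elements in 4 (5.13%, all genes 6.68%). Members with the NRF1 motif had a median log2 ratio of -0.26 in proximal tubule and those without it one of -0.18. For the strict form the order was reversed, at -0.09 for 7 members with it and -0.21 for 71 without. With and without the other letters, the medians were -0.22 and -0.19 for YY1 and -0.19 and -0.20 for the oestrogen-related receptors. They were -0.09 and -0.21 for ETS factors and -0.02 and -0.21 for hypoxia response elements. None of these differences was tested. A match describes letters and shows no binding.

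The promoters of 4 members are shown, each as the 250 bases before the gene start, 5′ to 3′ on the gene's own strand. They are Cox6b2 (chr7:4753095-4753344, minus strand) and its partner Cox6b1 (chr7:30626115-30626364, minus strand), as the pair whose ratios differed most, and the assembly factors Ndufaf4 (chr4:24897833-24898082, plus strand) and Sdhaf1 (chr7:30322376-30322625, minus strand), as the lowest members.
Cox6b2: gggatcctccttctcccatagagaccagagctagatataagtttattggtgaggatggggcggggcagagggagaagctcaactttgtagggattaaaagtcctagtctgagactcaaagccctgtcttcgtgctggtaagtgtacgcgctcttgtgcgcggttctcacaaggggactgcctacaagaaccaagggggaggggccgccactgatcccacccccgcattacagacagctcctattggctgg
Cox6b1: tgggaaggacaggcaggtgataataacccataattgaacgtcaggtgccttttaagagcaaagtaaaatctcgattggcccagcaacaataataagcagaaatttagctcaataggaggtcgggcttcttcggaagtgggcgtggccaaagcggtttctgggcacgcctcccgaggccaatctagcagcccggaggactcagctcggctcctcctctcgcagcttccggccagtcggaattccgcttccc
Ndufaf4: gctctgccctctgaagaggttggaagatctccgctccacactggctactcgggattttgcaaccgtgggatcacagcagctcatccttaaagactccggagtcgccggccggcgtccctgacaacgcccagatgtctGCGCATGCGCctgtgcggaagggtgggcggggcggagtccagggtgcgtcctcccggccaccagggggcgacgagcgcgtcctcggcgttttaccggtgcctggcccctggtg
Sdhaf1: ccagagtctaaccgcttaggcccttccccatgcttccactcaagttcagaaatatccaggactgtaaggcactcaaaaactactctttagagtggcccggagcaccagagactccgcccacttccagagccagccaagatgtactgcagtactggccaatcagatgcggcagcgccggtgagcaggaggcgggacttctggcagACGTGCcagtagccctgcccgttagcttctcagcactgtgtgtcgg
Capitals mark motif matches: the strict NRF1 form in Ndufaf4, which begins 113 bases before the start, and the hypoxia response letters in Sdhaf1, which begin 46 bases before it. Neither Cox6b2 nor Cox6b1 holds any of the searched letters in its window, and this says nothing about which factors act on them.

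The wider mitochondrial gene lists of proximal tubule behaved like the nuclear members or lay near 0. Of 77 mitochondrial ribosomal protein genes, which translate the mt- messages, 71 were below 0 (background 53.9%) with a median of -0.26, beside -0.21 for all genes with a mean of at least 0.1, and 65 or 66 under the other scalings (-0.17 to -0.15). The median was -0.10 for 29 further factors and partners of complexes III and IV, -0.10 for 13 of complexes I and V, -0.12 for 19 genes of electron entry and coenzyme Q, and -0.03 for 21 genes that maintain and express mitochondrial DNA. It was 0.02 for 20 genes of the tricarboxylic acid cycle and pyruvate dehydrogenase. The regulators of mitochondrial biogenesis had a median of -0.02 over 11 measured genes. Tfam, which packages mitochondrial DNA, was at 0.0883 in control and 0.0497 in IRI (-0.47), and Ppargc1a, a coactivator of respiratory genes, had a log2 ratio of 0.06.

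Of 246 genes measured across these lists and those for carriers, mitophagy, stress and hypoxia, 3 were at least 2-fold higher in proximal tubule (background 0.41%) and 1 at least 2-fold lower (background 0.762%). Pink1, a kinase that marks damaged mitochondria for removal, was at 0.388 in control and 0.103 in IRI (-1.52). Ucp2, an uncoupling-protein homologue of the inner membrane, was at 0.0410 and 0.259 (1.76), Gdf15, a hormone released under mitochondrial stress, at 0.00601 and 0.0656 (1.05), and Ndrg1, a gene induced by low oxygen, at 0.870 and 2.59 (1.52). Pink1 was thus lower in IRI and the other 3 higher.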

How the data were processed

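Single-cell RNA was read with a droplet method, and per the submitters' processing notes the tools were Cell Ranger 3.0.0 and Seurat 3.2 and the build was mm9. The deposited values are a score: counts that the authors corrected for depth with Seurat, so they are whole numbers but not raw counts, although raw counts had been planned for. A second deposited table holds their natural log (ln of the value plus 1) and differed from that of the first by at most 5.33e-15. Cell types, clusters, raw UMIs and genes per cell came from the deposited metadata, written without separators, and for 3615 of 11759 cells the split of joined digits was settled by the closest relation of genes to UMIs.

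For each type with at least 20 cells in both libraries, the mean per cell was taken of genes with at least 10 summed counts, 0.05 was added, and the IRI over control log2 ratio was formed. A 2-fold limit was used. For shares of cells, 95% intervals follow the exact Clopper-Pearson method, and a share of 0 has a limit of 3 counts of the total. Cells were not thinned. Named were all mt- members and, among nuclear members with a mean of at least 0.1 in proximal tubule, the 3 highest and 3 lowest of complexes I, III, IV and V, all of complex II, all past 2-fold and the isoform pairs. In other types the 2 highest and 2 lowest with at least 30 summed counts could be named, and of the wider lists those past 2-fold. One gene that this rule names is not reported here. A few further genes were named after their values were seen, as were the 4 promoters. The members and lists were chosen with earlier results of these data known. The scripts were tested on simulated data and used Python 3.11.15, numpy 2.4.6, scipy 1.17.1, pandas 2.3.3 and matplotlib 3.10.9. Alternatives covered scaling, the added constant, filters on genes and cells, and the weighting of segments, clusters and depth. Promoters are from RefSeq on GRCm38.p6, another build than that of the files.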

Additional observations from a re-analysis of the deposited data

Results flagged for a closer look

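In 3 types of the distal nephron the median log2 ratio of mt- members minus that of nuclear members had the opposite sign to proximal tubule, where it was 0.44. It was -0.40 in CD-IC, -0.25 in DCT/CNT and -0.18 in TAL. These are differences between 2 libraries, and the difference between the types was not tested. The TAL value turned sign under 2 alternatives (0.0081 and 0.081). PT-S3, a proximal type, also had a value below 0 (-0.03), which turned sign under 3 alternatives.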

How the results depend on the processing

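No paired analysis was possible because each group is 1 library. Dropping barcodes found in both libraries, and weighting raw UMI bins equally, were chosen after seeing the data. Not run were weightings for types with 1 cluster or too few bins, cells of at least 2000 UMIs in B cells, myofibroblasts and resident macrophages, and an mt- share under 20% in CD-IC and myofibroblasts. The main results kept their sign and stayed within the set limits in 194 comparisons with an alternative, moved beyond them in 23 and turned sign in 5. For other medians, shares and named genes these counts were 1454, 127 and 26. Of 49 named members in proximal tubule, 16 changed sign under at least 1 alternative. In proximal tubule the mt- median was 0.40, 0.40 and 0.43 under a trimmed mean, the median of gene ratios, and totals without mt-, ribosomal and haemoglobin genes, and 0.46 in cells of at least 2000 UMIs. The nuclear median was -0.064, -0.067 and -0.043 under those scalings, -0.11 with 0.5 added, -0.11 at an mt- share under 20% and -0.071 with clusters at equal weight. Their difference was 0.67 at 2000 UMIs or more. Nuclear members past the limit were 2 lower with 0.01 added and 3 lower and 2 higher at a 1.5-fold limit, and 0 higher with 0.5 added. The mt- minus nuclear difference at 2000 UMIs or more was -0.93 in CD-IC, 1.07 in PT-S2 and -0.46 in TAL. At an mt- share under 20% it was 0.46 in PT-S2, 0.37 in resident macrophages, 0.79 in tDL and 0.081 in TAL. With clusters at equal weight it was 0.087 in PT-S2 and 0.11 in PT-S3, and with UMI bins 0.45 in PT-S2, 0.15 in PT-S3 and 0.0081 in TAL. With 0.5 added it was 0.0091 in PT-S3. Other medians turned sign as follows. Nuclear medians under the 3 scalings were 0.089, 0.087 and 0.054 in PT-S2 and 0.013, 0.032 and 0.011 in vasculature, and mt- medians in T cells 0.16, 0.085 and 0.015. A trimmed mean gave nuclear medians of 0.011 in B cells, 0.017 in Ccr2+ macrophages and 0.058 in myofibroblasts. For Ccr2+ macrophages the median was 0.090 by gene ratios, 0.11 at 30 summed counts and 0.026 for structural subunits, and for myofibroblasts 0.026 by those totals. Clusters at equal weight gave nuclear medians of 0.013 in PT-S2 and -0.12 in PT-S3, and mt- medians of -0.017 in PT-S3 and 0.27 in tDL. An mt- share under 20% gave mt- medians of -0.075 in PT-S3, 0.17 in TAL and 0.069 in tDL, UMI bins 0.15 in TAL, 2000 UMIs -0.0061 in vasculature, and totals 0.026 in tDL. The cause was not tested.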
